A study of Homo sapiens with 4 samples.

Results

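The 10 genes described here encode basement membrane proteins: the collagen IV chain genes COL4A1, COL4A2, COL4A5 and COL4A6, the collagen VII gene COL7A1, the laminin chain genes LAMA5, LAMB1 and LAMC1, the nidogen gene NID1 and the perlecan gene HSPG2. They were chosen by symbol from a read count table of 25369 genes. All 10 were in the table and all 10 passed the filter on low counts, which left 14901 genes for testing. The cells were H226, a human line derived from squamous carcinoma of the lung and engineered with a doxycycline-inducible short hairpin RNA. In the shp63 group the hairpin targets p63, and in the shControl group it is non-targeting. There were 2 cultures per group, described by the submitters as independent biological replicates, and every culture, shControl included, was kept in 1 µg/mL doxycycline for 6 days before polyadenylated RNA was sequenced. The labels name 1 construct per group, so the effects of the hairpin sequence and of its target cannot be told apart. All levels are of RNA from whole cultures, in which fewer cells of a kind and less RNA per cell cannot be told apart.

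The basement membrane is the thin sheet of matrix on which epithelial cells rest. It is built from a laminin network that assembles at the cell surface and a covalently linked collagen IV network, which nidogens and the heparan sulfate proteoglycan perlecan bridge. Collagen IV chains assemble as trimers. COL4A1 and COL4A2 encode the chains of the most widespread trimer, COL4A3 and COL4A4 chains join with the COL4A5 chain in a trimer of specialised membranes such as those of the kidney glomerulus and lung alveolus, and COL4A5 and COL4A6 chains join in another that is found in epithelial membranes such as that of the skin. Collagen VII forms the anchoring fibrils that tie the epidermal basement membrane to the dermis. p63, a transcription factor of basal epithelial cells, is known to control many genes of cell adhesion to matrix.

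The collagen IV genes lie in head-to-head pairs that are transcribed away from a common stretch of DNA. The start regions are shown first for the pairs whose members are both among the 10 genes. In the RefSeq table (GRCh38.p14) each window runs from 250 bases before to 50 bases after a transcription start, and all 10 genes matched. RefSeq lists 2 starts for COL4A6, one 380 bases from the COL4A5 start and a second 1416 bases from it, and the read counts are per gene and do not separate them. The first COL4A6 window and the COL4A5 window share 121 bases, which are in capitals in both and are the reverse complement of each other. The windows are chrX:108439588-108439887 (plus strand) for COL4A5 and chrX:108439409-108439708 (minus strand) for the first start of COL4A6.
COL4A5: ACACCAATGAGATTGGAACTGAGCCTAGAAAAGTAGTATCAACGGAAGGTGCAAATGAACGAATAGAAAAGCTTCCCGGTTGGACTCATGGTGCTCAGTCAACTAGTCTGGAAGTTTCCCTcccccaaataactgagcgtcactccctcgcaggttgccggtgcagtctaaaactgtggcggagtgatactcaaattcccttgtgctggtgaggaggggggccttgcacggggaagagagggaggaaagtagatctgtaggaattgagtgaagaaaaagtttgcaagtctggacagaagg
COL4A6 start 1: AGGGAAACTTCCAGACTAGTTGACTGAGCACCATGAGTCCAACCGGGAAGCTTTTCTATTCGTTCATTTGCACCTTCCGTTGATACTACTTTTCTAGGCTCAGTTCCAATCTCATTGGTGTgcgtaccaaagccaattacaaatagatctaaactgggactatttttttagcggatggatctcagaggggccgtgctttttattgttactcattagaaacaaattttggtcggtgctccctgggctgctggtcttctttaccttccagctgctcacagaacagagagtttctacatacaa

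The second COL4A6 start has its own window at chrX:108438373-108438672 (minus strand), which shares no base with that of COL4A5. The capitals mark its single GC box, the letters GGGCGG read on either strand.
COL4A6 start 2: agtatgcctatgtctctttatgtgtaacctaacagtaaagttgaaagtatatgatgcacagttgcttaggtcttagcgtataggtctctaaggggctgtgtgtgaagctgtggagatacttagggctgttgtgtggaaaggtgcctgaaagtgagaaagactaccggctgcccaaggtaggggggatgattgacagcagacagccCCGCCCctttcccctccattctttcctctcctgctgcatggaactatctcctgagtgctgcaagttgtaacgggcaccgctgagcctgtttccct

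COL4A1 and COL4A2 start only 127 bases apart, and their windows share most of their bases, in capitals below. The windows are chr13:110307034-110307333 (plus strand) for COL4A2 and chr13:110307108-110307407 (minus strand) for COL4A1.
COL4A2: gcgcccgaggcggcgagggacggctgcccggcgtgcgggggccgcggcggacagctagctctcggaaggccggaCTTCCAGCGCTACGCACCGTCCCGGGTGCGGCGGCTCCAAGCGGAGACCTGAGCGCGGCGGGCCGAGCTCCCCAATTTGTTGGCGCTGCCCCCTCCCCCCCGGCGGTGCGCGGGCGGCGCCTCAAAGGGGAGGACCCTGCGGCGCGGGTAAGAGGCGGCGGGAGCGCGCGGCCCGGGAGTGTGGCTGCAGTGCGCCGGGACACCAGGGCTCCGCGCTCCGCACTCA
COL4A1: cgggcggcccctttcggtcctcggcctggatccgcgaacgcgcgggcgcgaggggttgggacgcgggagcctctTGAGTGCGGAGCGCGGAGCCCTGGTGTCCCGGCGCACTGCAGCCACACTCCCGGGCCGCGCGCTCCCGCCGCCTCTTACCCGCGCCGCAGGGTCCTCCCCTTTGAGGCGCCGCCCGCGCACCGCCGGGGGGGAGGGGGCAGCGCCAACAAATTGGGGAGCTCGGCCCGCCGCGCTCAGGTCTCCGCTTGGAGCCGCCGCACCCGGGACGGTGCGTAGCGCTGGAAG

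The start regions of NID1 at chr1:236065041-236065340 and of COL7A1 at chr3:48595280-48595579 (both minus strand, GRCh38.p14) are shown because these genes fell together with COL4A6. Capitals mark matches, on either strand, to 5 motifs: the GC box GGGCGG, the CCAAT box CCAAT, the TATA box TATAAA, the AP-1 site TGANTCA and the p53 family half-site consensus.
NID1: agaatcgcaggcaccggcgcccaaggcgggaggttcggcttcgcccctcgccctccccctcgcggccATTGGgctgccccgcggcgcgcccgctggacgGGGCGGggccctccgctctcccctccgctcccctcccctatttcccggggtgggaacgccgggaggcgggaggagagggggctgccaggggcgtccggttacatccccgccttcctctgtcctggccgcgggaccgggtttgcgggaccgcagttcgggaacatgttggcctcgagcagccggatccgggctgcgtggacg
COL7A1: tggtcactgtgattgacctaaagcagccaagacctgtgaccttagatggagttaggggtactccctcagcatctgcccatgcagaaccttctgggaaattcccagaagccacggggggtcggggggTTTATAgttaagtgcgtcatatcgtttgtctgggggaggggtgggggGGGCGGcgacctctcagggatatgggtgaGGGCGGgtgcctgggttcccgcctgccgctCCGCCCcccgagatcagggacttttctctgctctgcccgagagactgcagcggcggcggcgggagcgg

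NID1 had 1 GC box and 1 CCAAT box, and COL7A1 had 3 GC boxes and 1 TATA box. Neither window, and none of the other windows of the 10 genes, held an exact match to the p53 family half-site consensus or to the AP-1 letters. Over all 35116 windows of the same length, 6.63% held the half-site consensus, 7.71% the AP-1 letters, 45.0% a GC box, 34.6% a CCAAT box and 11.5% a TATA box. The absence of a match says only that these letters are not in these windows.

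The libraries summed to 51926832 to 53924761 counted reads. Levels are given as CPM, the count scaled to a common normalised library size. TP63, the gene targeted by the hairpin, had 1596 and 1530 reads in shp63 and 7533 and 7364 reads in shControl. It fell by 2.16 on the log2 scale (adjusted p = 2.28e-21, edgeR with Benjamini-Hochberg). The 9 squamous epithelial markers, TP63 among them, summed to 4090 to 4299 CPM in shp63 and 5449 to 5547 CPM in shControl, with SOX2 below 1 CPM in every library. KRT17, which fell 1.27-fold, made up 73.0% of the sum in shp63 and 70.9% in shControl. Of the 9 markers 6 fell, among them KRT5 (5.12-fold), DSG3 (4.42-fold) and KRT14 (3.04-fold), and 3 rose, KRT6A (1.32-fold), EPCAM (1.80-fold) and CDH1 (1.51-fold). Every marker list of another cell type had members below 1 CPM in all libraries, and each list that had a higher sum in shp63 was carried by 1 or 2 genes. Called members went both ways in each of these lists except the mesothelial one, where none fell. The 8 endothelial markers summed to 195 to 197 CPM in shp63 and 62.1 to 67.3 CPM in shControl, of which CDH5 made up 95.7% in shp63 and 87.6% in shControl. CDH5, ESAM and PECAM1 rose 3.31-fold, 2.31-fold and 1.81-fold, while VWF fell 3.57-fold and KDR, TEK, EMCN and TIE1 stayed below 1 CPM. The 8 mural cell markers summed to 500.0 to 511 CPM in shp63 and 155 to 159 CPM in shControl, with 3 members higher and 3 lower. The most abundant was MCAM in shp63 (391.9 CPM, against 62.5 CPM in shControl) and CSPG4 in shControl (79.3 CPM), ACTA2, RGS5 and PDGFRB fell, and MYH11, CNN1, DES and PDGFRB stayed below 1 CPM. The 8 fibroblast markers summed to 880 to 904 CPM in shp63 and 459 to 481 CPM in shControl, led by FBLN1 (also in the list of other basement membrane genes below). COL1A1 fell 1.40-fold, with DCN at 0 reads and COL1A2, COL3A1, LUM, PDGFRA and THY1 below 1 CPM. The 6 mesothelial markers summed to 630.0 to 636 CPM in shp63 and 334 to 361 CPM in shControl. MSLN rose 2.51-fold and was the most abundant in shp63, UPK3B rose 1.40-fold and was the most abundant in shControl, with PDPN at 0 reads and WT1, CALB2 and LRRN4 below 1 CPM. Of leukocyte markers, CD14 had 43.9 CPM in shp63 and 6.17 CPM in shControl and CD68 had 31.6 CPM in shp63 and 6.62 CPM in shControl, while PTPRC, CD3E and ITGAM stayed below 1 CPM. The part of such cells or programmes in the results below was not tested.

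The comparison asks which of the 10 genes differ when the p63 hairpin is expressed in place of the non-targeting one. NID1, COL4A6 and COL7A1 fell, with fitted changes of 28.3-fold, 3.03-fold and 1.80-fold. COL4A2, LAMB1, COL4A5, LAMA5 and COL4A1 rose by 1.10-fold to 1.29-fold, and LAMC1 and HSPG2 did not pass the threshold. For these 5 rises, from 25.9% (COL4A2) to 38.6% (COL4A1) of all tested genes had a log2 fold change as high or higher. The test was edgeR's quasi-likelihood test with Benjamini-Hochberg adjustment over all 14901 genes, called at an adjusted p under 0.05. By this rule 74.0% of all tested genes were called, 36.9% higher and 37.1% lower, so 8 called members of 10 is a share near the background. When a change beyond 1.5-fold was asked for, 22.7% of all genes were called, 12.7% higher and the remaining 1491 genes lower. By that rule the 3 falls were called and none of the 5 rises was (adjusted p = 1 for each, edgeR's glmTreat). For 9 of the 10 genes every shp63 library lay on one side of both shControl libraries, as for 86.4% of all tested genes. The median log2 fold change of the 10 genes was 0.14 and their median absolute log2 fold change 0.27, beside -0.01 and 0.36 for all tested genes. For 1 value over 4 libraries, the smallest two-sided p from exact permutation is 0.33, and the calls use the variance that edgeR moderates across genes.

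**Figure D1:**
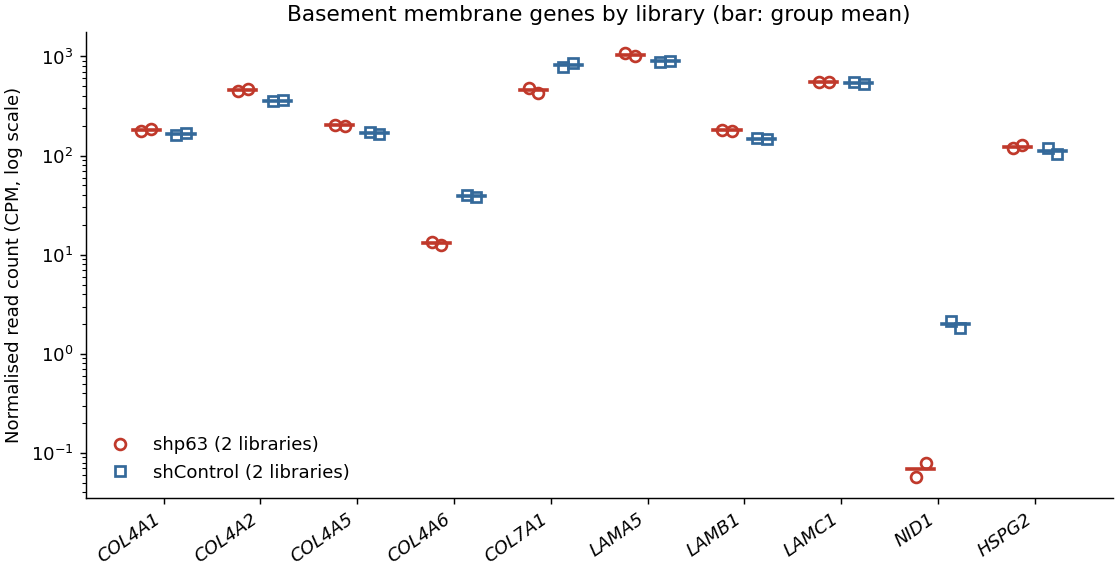
Normalised read counts (CPM, log axis) of the 10 genes in each of the 2 shp63 libraries (circles, left) and 2 shControl libraries (squares, right), with horizontal bars at the group means. COL4A6, COL7A1 and NID1 lie lower in both shp63 libraries, by 28.3-fold for NID1, while the other 7 genes lie close together.

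**Figure D2:**
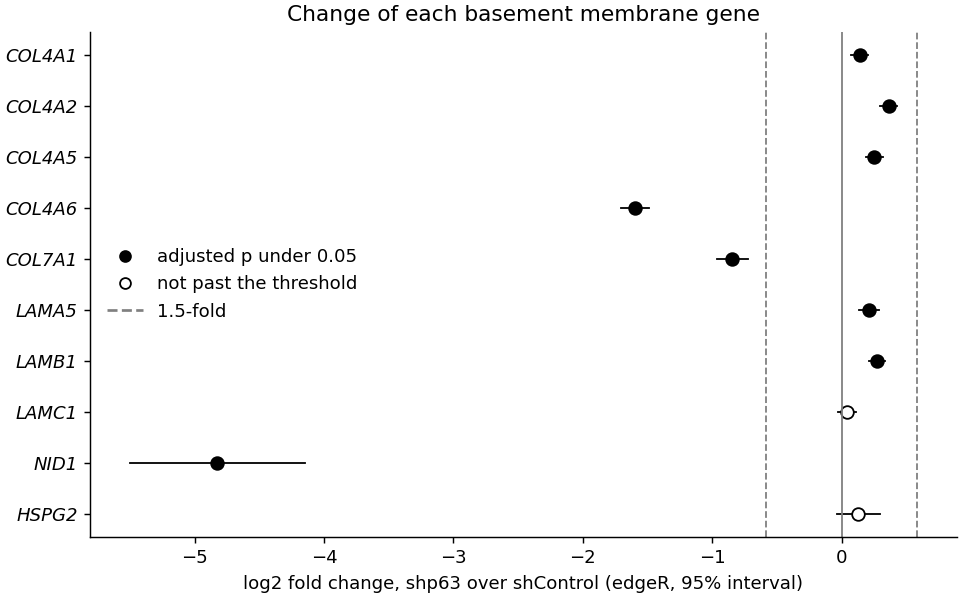
The log2 fold change of shp63 over shControl for each gene (edgeR; lines are 95% intervals), with filled points past an adjusted p of 0.05 and dashed lines at 1.5-fold. COL4A6, COL7A1 and NID1 lie left of the lower dashed line, and the 5 rises lie between 0.14 and 0.37.

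Among the collagen IV genes, COL4A6 and its neighbour COL4A5 moved in opposite directions. COL4A6 (chromosome X, 107398837 to 107682727, minus strand, GRCh37) had 694 and 635 reads in shp63 and 2225 and 2074 reads in shControl. These are 13.3 and 12.7 CPM in shp63, against 40.1 and 38.6 CPM in shControl. Both shp63 libraries were lower than both shControl libraries. The log2 fold change was -1.60 (SE 0.052, adjusted p = 2.32e-17, edgeR with Benjamini-Hochberg), and 2.80% of all tested genes had a log2 fold change as low or lower. COL4A5 (chromosome X, 107683068 to 107940775, plus strand, GRCh37) had 203 and 201 CPM in shp63, against 173 and 165 CPM in shControl. Its groups did not overlap, and its log2 fold change was 0.25 (SE 0.030, adjusted p = 1.12e-07, edgeR with Benjamini-Hochberg). Within a library there were 15.2 and 15.8 COL4A5 reads per COL4A6 read in shp63, against 4.30 and 4.29 in shControl. On the log2 scale this ratio averaged 3.95 ± 0.042 in shp63 and 2.10 ± 0.0033 in shControl (SD, n = 2 each). The difference was 1.85 (exact two-sided permutation p = 0.33, the smallest that 2 against 2 allows), and it does not depend on how libraries are scaled to each other.

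COL4A1 and COL4A2, which share most of their start region, both rose, though not equally. COL4A2 (chromosome 13, 110958159 to 111165556, plus strand, GRCh37) had 451 and 469 CPM in shp63, against 351 and 363 CPM in shControl. Its groups did not overlap, and its log2 fold change of 0.37 was the highest of the 10 genes (SE 0.032, adjusted p = 9.24e-10, edgeR with Benjamini-Hochberg). COL4A1 (chromosome 13, 110801310 to 110959504, minus strand, GRCh37) had 178 and 186 CPM in shp63, against 161 and 169 CPM in shControl. The groups lay close together without overlapping, at a log2 fold change of 0.14 (SE 0.032, adjusted p = 0.000379, edgeR with Benjamini-Hochberg). This rise was not called when libraries were scaled to their totals alone (log2 fold change 0.05, adjusted p = 0.115). Each COL4A2 read was matched by 0.394 and 0.396 COL4A1 reads in shp63, against 0.459 and 0.464 in shControl. The log2 ratio of COL4A1 to COL4A2 was thus lower by 0.22 in shp63 (shp63 minus shControl, -0.22, exact two-sided permutation p = 0.33, the smallest possible). The spread within a group on this scale was 0.0049 in shp63 and 0.011 in shControl (SD, n = 2 each).

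The third head-to-head pair, COL4A3 and COL4A4, is not among the 10 genes but supplies the partners of the COL4A5 chain. COL4A3 had 2248 and 2084 reads in shp63, against 860 and 977 reads in shControl, and COL4A4 had 6276 and 5862 reads in shp63, against 3220 and 3024 reads in shControl. By edgeR they were 2.52-fold and 2.08-fold higher (Benjamini-Hochberg adjusted p = 5.92e-14 and 2.82e-16). Dividing CPM by the length of the canonical transcript puts the chains on one scale. The 6 collagen IV genes summed to 148 and 151 CPM per kb in shp63, against 119 and 121 CPM per kb in shControl. COL4A6 made up 1.35% and 1.26% of this sum in shp63, against 5.03% and 4.76% in shControl. COL4A2 made up 47.4% and 48.3% in shp63, against 45.7% and 46.5% in shControl, and was the most abundant chain transcript in every library.

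**Figure D3:**
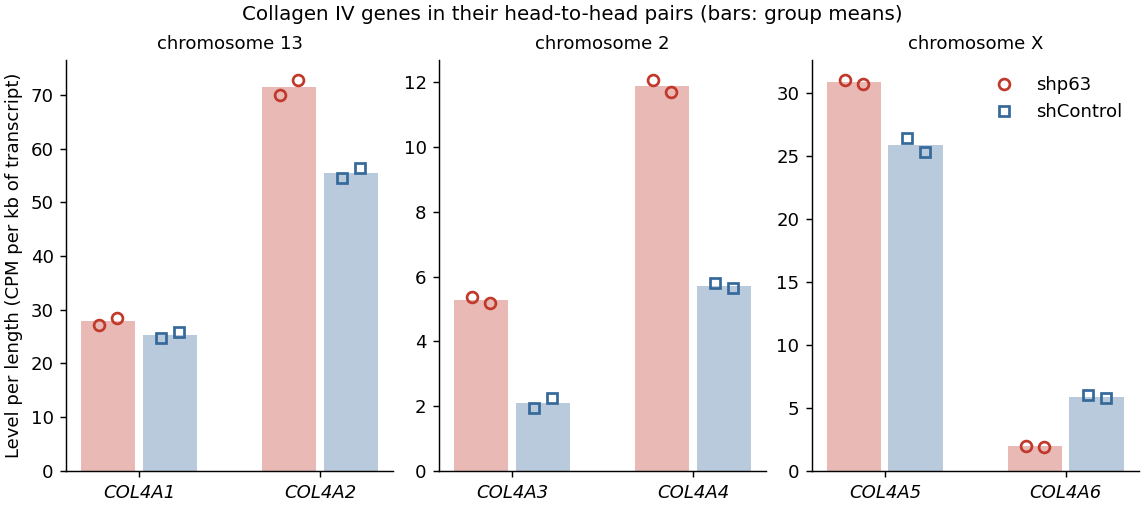
Level per length (CPM per kb of canonical transcript) of the 6 collagen IV genes, drawn in their head-to-head pairs, with points for the 2 shp63 (left) and 2 shControl (right) libraries and bars for group means. COL4A6 is lower in shp63, at 2.00 and 1.89 against 6.00 and 5.77 CPM per kb, while the points of each other chain lie higher in shp63.

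COL7A1, the anchoring fibril collagen (chromosome 3, 48601506 to 48632762, minus strand, GRCh37), had 24990 and 21640 reads in shp63, against 43487 and 45906 reads in shControl. These are 480 and 432 CPM in shp63, against 784 and 854 CPM in shControl, with no overlap between groups. The log2 fold change was -0.84 (SE 0.053, adjusted p = 5.32e-08, edgeR with Benjamini-Hochberg), and 8.79% of all tested genes had a log2 fold change as low or lower. The 2 shp63 libraries differed by 0.15 on the log2 scale, a gap reached by 0.549% of the 2370 genes that average at least 100 CPM. In shControl they differed by 0.12, a gap reached by 2.78% of those genes. The fall was larger than either gap. COL7A1 is among the 3 members with the highest GC content in the canonical transcript, at 64.8%, with LAMA5 at 66.4% and HSPG2 at 64.5%, where the others range from 48.8% to 61.8%. The part of GC content in these gaps was not tested. UCN2, which lies just downstream on the same strand, also fell, with 380 and 326 reads in shp63, against 501 and 638 reads in shControl (adjusted p = 0.000613, edgeR with Benjamini-Hochberg).

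NID1, which encodes the nidogen that links laminin to collagen IV (chromosome 1, 236139130 to 236228409, minus strand, GRCh37), had 3 and 4 reads in shp63, against 120 and 99 reads in shControl. It was the least abundant of the 10 genes in both groups, at 0.0687 ± 0.0156 CPM in shp63 and 2.00 ± 0.228 CPM in shControl (SD, n = 2 each). The fitted log2 fold change was -4.82 (SE 0.33, adjusted p = 1.07e-11, edgeR with Benjamini-Hochberg), and 0.0268% of all tested genes had one as low or lower. From the summed reads, 7 in shp63 and 219 in shControl, the level was 29.3-fold lower in shp63 (exact 95% interval 14 to 73.7, which covers counting error only). NID2, the second nidogen gene, had 4526 and 4578 reads in shp63, against 4017 and 4112 reads in shControl. By edgeR NID2 was 1.20-fold higher (Benjamini-Hochberg adjusted p = 1.01e-05), and its reads outnumbered those of NID1 in every library.

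The laminin genes among the 10 encode an alpha chain, a beta chain and a gamma chain that form a common epithelial laminin trimer. LAMA5 (chromosome 20, 60883011 to 60942368, minus strand, GRCh37) had 1074 and 1004 CPM in shp63, against 883 and 909 CPM in shControl. Its groups did not overlap, and the log2 fold change was 0.21 (SE 0.037, adjusted p = 2.61e-05, edgeR with Benjamini-Hochberg). LAMB1 (chromosome 7, 107564244 to 107643658, minus strand, GRCh37) had 182 and 177 CPM in shp63, against 150.0 and 146 CPM in shControl. It rose by 0.28 on the log2 scale (SE 0.030, adjusted p = 2.37e-08, edgeR with Benjamini-Hochberg). LAMC1, which encodes the gamma chain shared by most laminins (chromosome 1, 182992555 to 183114727, plus strand, GRCh37), had 553 and 558 CPM in shp63, against 551 and 526 CPM in shControl. Its groups lay next to each other, with a gap smaller than the spread within shControl. Its log2 fold change was 0.04 (95% interval -0.02 to 0.11, adjusted p = 0.231, edgeR with Benjamini-Hochberg) and turned to -0.04 when libraries were scaled to their totals alone. The log2 ratio of LAMB1 to LAMC1 reads was higher by 0.23 in shp63, at -1.63 ± 0.036 against -1.86 ± 0.023 in shControl (SD, n = 2 each). That of LAMA5 to LAMC1 was higher by 0.17, at 0.90 ± 0.079 in shp63 and 0.74 ± 0.077 in shControl. That of NID1 to LAMC1 was lower by 4.73 in shp63 (shp63 minus shControl, -4.73). Each of these 3 ratios had an exact two-sided permutation p of 0.33, the smallest possible, and with the 2 collagen IV ratios above they make up the 5 fixed pairs. The log2 ratios of COL4A3 to COL4A4 and of NID1 to NID2 were added to these. They differed by 0.28 and -4.95 (shp63 minus shControl, exact two-sided permutation p = 0.33 each).

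HSPG2, the perlecan gene (chromosome 1, 22148737 to 22263803, minus strand, GRCh37), had 118 and 128 CPM in shp63, against 120.0 and 105 CPM in shControl. It was the one gene of the 10 whose groups overlapped. The log2 fold change was 0.13 (95% interval -0.03 to 0.30, adjusted p = 0.127, edgeR with Benjamini-Hochberg). Its 2 shControl libraries differed by 0.20 on the log2 scale, a gap reached by 0.675% of the genes averaging at least 100 CPM. Without shControl replicate 1 it was called higher (log2 fold change 0.23, adjusted p = 5.14e-08, edgeR with Benjamini-Hochberg), and over the alternatives other than the 1.5-fold test its adjusted p ranged from 5.14e-08 to 0.709.

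Per length, the order of the 10 genes was led by LAMA5 in shp63 (90.9 ± 4.30 CPM per kb) and by COL7A1 in shControl (88.7 ± 5.34 CPM per kb; SD, n = 2 each). In shp63 COL4A2 (71.4 ± 1.98), LAMC1 (70.0 ± 0.513) and COL7A1 (49.4 ± 3.74) followed, then LAMB1 (31.7 ± 0.567), COL4A5 (30.9 ± 0.228), COL4A1 (27.8 ± 0.865), HSPG2 (8.58 ± 0.486), COL4A6 (1.95 ± 0.0715) and NID1 (0.0119 ± 0.00270), all in CPM per kb. In shControl LAMA5 (78.5 ± 1.61), LAMC1 (67.9 ± 2.22) and COL4A2 (55.4 ± 1.30) followed COL7A1, then LAMB1 (26.2 ± 0.436), COL4A5 (25.9 ± 0.778), COL4A1 (25.2 ± 0.790), HSPG2 (7.83 ± 0.760), COL4A6 (5.89 ± 0.164) and NID1 (0.346 ± 0.0394). The libraries of COL4A2 and LAMC1 overlapped in shp63. In shControl the libraries of COL4A5 overlapped those of LAMB1 and those of COL4A1, while LAMB1 and COL4A1 did not overlap each other. Neighbours that overlapped were thus not ordered beyond their spread. With the union of all annotated exons as the length, 11 of the 20 places moved, while the first gene of each group was the same. LAMB1 took place 7 in both groups, behind COL4A5 and COL4A1. COL4A2 took place 4 in shp63, behind LAMC1 and COL7A1, and LAMA5 took place 3 in shControl, behind LAMC1. Among all tested genes with a length, the mean level over the 4 libraries lay between the percentile 6.42 for NID1 and 93.8 for LAMA5.

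Some exons overlap those of genes on the other strand, and the strand setting of the counting was not given in the sources used here. LAMB1 shares 300 exonic bases with DLD, which had 17066 and 16931 reads in shp63, against 13553 and 13001 in shControl. LAMA5 shares 244 exonic bases with ADRM1, which had 4029 and 3984 reads in shp63, against 4882 and 4637 in shControl. The part of these overlaps in the LAMB1 and LAMA5 counts was not tested. HSPG2 shares 2122 exonic bases with LDLRAD2 and COL4A2 shares 81 with COL4A2-AS1, and these partners had at most 4 reads in any library. The part of these overlaps in the HSPG2 and COL4A2 counts was not tested either.

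Most other basement membrane genes rose. Of 30 listed 26 were tested, of which 19 rose and 6 fell, where 36.9% of all tested genes rose and 37.1% fell. SPARC did not pass the threshold, and the median log2 fold change was 0.81. NPNT (nephronectin, an integrin ligand) rose 3.77-fold, NTN4 (netrin-4, a laminin-binding protein) 2.60-fold and COL4A3 2.52-fold. NTN4 had 400.0 ± 11.2 CPM in shp63 and 154 ± 1.27 CPM in shControl (SD, n = 2 each). The 6 that fell were EGFLAM (pikachurin, 1.87-fold, to 11.5 CPM against 21.6 CPM in shControl) and LAMA1, LAMA2, LAMB4, FBLN2 and SMOC2, which were all below 1 CPM on average. Of those that rose, COL15A1 and LAMA4 were also low, at 0.954 and 1.06 CPM in shp63, against 0.495 and 0.560 CPM in shControl. Without shp63 replicate 1, 3 of the list fell. The gene of another laminin beta chain, LAMB2, rose 1.56-fold, to 548 ± 25.1 CPM in shp63, against 352 ± 3.85 CPM in shControl (SD, n = 2 each); it was named after its values were seen.

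Of 19 genes for folding and export of collagen, 17 were tested. Of these 14 rose and 0 fell by edgeR (0 also at an unadjusted p under 0.05), where 36.9% of all tested genes rose and 37.1% fell. The median log2 fold change was 0.47. P4HA1 and P4HB, subunits of the prolyl hydroxylase that stabilises the collagen helix, rose 2.17-fold and 1.91-fold. PLOD1, a lysyl hydroxylase, rose 1.89-fold, and LEPREL1, COLGALT1 and COLGALT2 did not pass the threshold. By DESeq2 and limma-voom, too, 0 fell, while 11 rose and 1 fell when libraries were scaled to their totals alone. Of 15 basement membrane receptors 7 rose and 5 fell (median log2 fold change 0.07), shares near the 36.9% and 37.1% of all tested genes. ITGB1, the beta subunit of most matrix-binding integrins, rose 2.57-fold to 2023 ± 19.9 CPM in shp63, against 788 ± 0.464 CPM in shControl (SD, n = 2 each). The laminin-binding alpha subunit gene ITGA3 and the collagen receptor kinase gene DDR1 rose 1.81-fold and 1.56-fold. ITGB4 and ITGA6, which form the laminin receptor of hemidesmosomes, fell 1.67-fold and 1.34-fold. BCAM, a receptor for the laminin chain encoded by LAMA5, fell 1.40-fold.

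**Figure D4:**
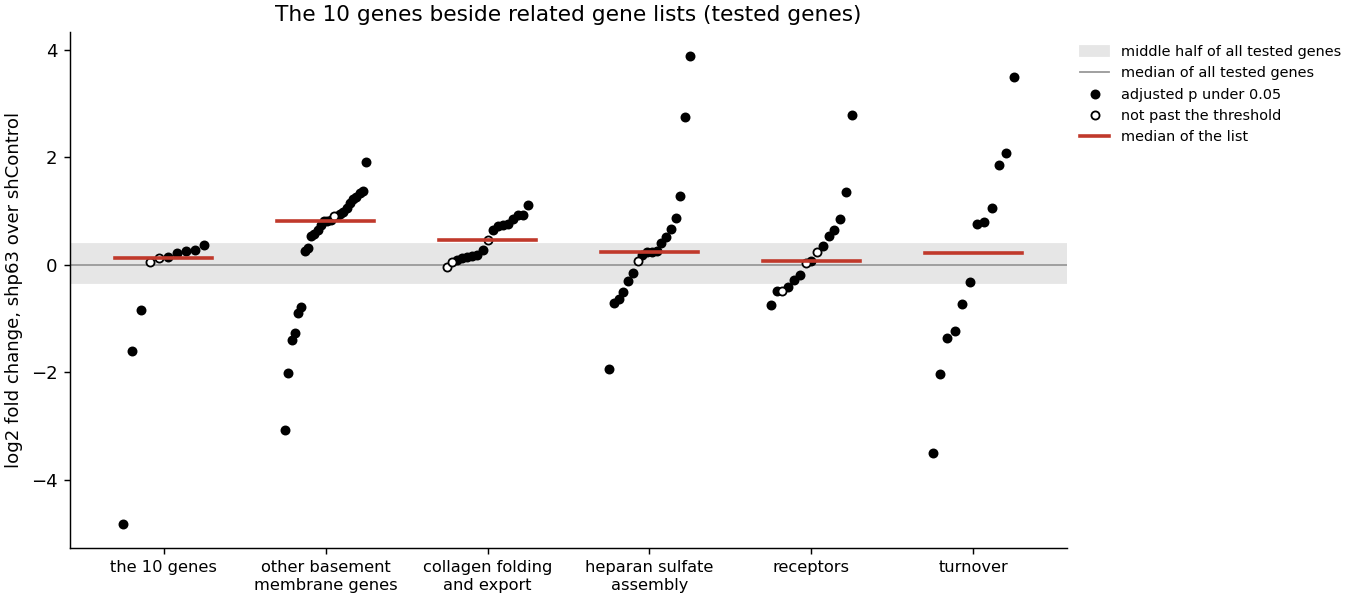
The log2 fold change of shp63 over shControl for every tested gene of the 10 described here and of 5 related lists, sorted within each list, with red bars at list medians and a grey band over the interquartile range of all tested genes. The median is 0.14 for the 10 genes and 0.81 for other basement membrane genes, and NID1 is the lowest point at -4.82.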

How the data were processed

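Poly(A) RNA of the 2 shp63 and 2 shControl cultures was sequenced from a stranded library kit, per the labels' protocols. The deposited values are raw read counts per gene symbol. Per the submitters' processing notes, reads were aligned to GRCh37 (hg19) with TopHat2 2.0.13 and counted with HTSeq 0.6.1. The gene annotation and strand setting are not given in the sources used here, and reads shared by paralogs or overlapping genes are uncertain.

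The counts were tested with edgeR 4.0.16 (R 4.3.3) after filterByExpr, which left out 10468 genes, with TMM factors of 0.966 to 1.03, a robust quasi-likelihood fit of group alone and Benjamini-Hochberg adjustment over all genes. A change beyond 1.5-fold was tested with glmTreat, and DESeq2 1.42.0 and limma 3.58.1 served as alternatives. The procedure was also run on simulated counts in which few genes changed. Its behaviour under a change as broad as the one seen here was not checked. Standard errors come from the fold change and its F statistic. Log2 ratios within a library used a prior of 0.5 reads. Positions and lengths come from GENCODE v44 lifted to GRCh37, and start regions from RefSeq.

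The 10 genes and all lists were chosen with earlier results of these data known. Genes named beside the 10 are TP63 and up to 3 called genes per direction in each list, by largest change among those averaging at least 5 CPM. LAMB2, NID2, COL4A4, the overlapping partners, the marker genes given with values and members named to spell out counts of 6 or fewer were chosen after their values were seen. The sum of one marker list is not reported here.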

Additional observations from a re-analysis of the deposited data

How the results depend on the processing

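Fold changes of the 10 genes kept their direction under the 13 alternatives tried (other scalings, filters and tools, blocks and each library left out), except LAMC1, which was not called and had -0.044 with library totals. That scaling moved the median of all genes by -0.09 and ended the call of COL4A1. HSPG2 was also called by limma-voom (adjusted p = 0.0226, Benjamini-Hochberg). Testing beyond 1.5-fold called 0 of the 10 genes higher and 3 lower, and 1894 genes higher and 1491 lower overall. It called 12 other basement membrane genes higher and 3 lower, and 7 collagen folding genes higher. Of 18 tested heparan sulfate genes it called 5 higher and 1 lower. The 5 were B3GAT3, EXT2 and, averaging below 5 CPM in both groups, HS6ST3, HS3ST1 and HS3ST2. The 1 lower was HS3ST3B1, with 4 and 7 reads in shp63, against 28 and 18 reads in shControl. The 1.5-fold test did not call the falls of EXTL2, HS6ST1 and NDST1 or the rise of XYLT2. Of 15 receptors it called 3 higher (ITGB1, ITGA3 and SDC2, the last below 5 CPM in both groups) and 1 lower (ITGB4). Of 12 tested turnover genes it called 6 higher and 5 lower. The count of other basement membrane genes that fell was 1 with the filter of 1 CPM in 2 libraries, 3 by DESeq2 and 3 to 5 with a library left out. With library totals 11 collagen folding genes rose and 1 fell. With a prior of 2 reads the log2 ratio of NID1 to LAMC1 differed by -4.29. The falls of the 10 numbered 3 in every alternative.

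Replicate numbers are shared by the groups, but nothing in the labels pairs the cultures, and deviations of same-numbered libraries correlated at -0.11 across genes. With the replicate number as a block, 5 of the 10 genes rose and 3 fell, with 5408 and 5450 calls over all genes. With the crossed pairing, added after seeing the data, the counts were 6 and 3, and 5659 and 5728. For NID1, 3 and 4 reads limit the precision of its level in shp63.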

Other observations

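Genes that build heparan sulfate, the sugar chain carried by perlecan, moved both ways. Of 18 tested genes 11 rose and 6 fell, where 36.9% of all tested genes rose and 37.1% fell. HS2ST1 did not pass the threshold, and the median log2 fold change was 0.24. B3GAT3, which completes the linker of the chain, rose 1.83-fold. EXT2, a subunit of the chain polymerase, rose by 0.67 on the log2 scale, and XYLT2, which starts the linker, rose 1.43-fold. The sulfotransferase genes HS6ST1 and NDST1 fell 1.55-fold and 1.43-fold, and the glycosyltransferase gene EXTL2 fell 1.64-fold.

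Of 12 tested genes of matrix turnover 6 rose and 6 fell, an even split like that of all tested genes (36.9% higher and 37.1% lower). All 12 were thus called, beside 74.0% of all tested genes. Beyond 1.5-fold 6 were called higher and 5 lower, where 22.7% of all tested genes were called either way. Among these calls MMP7, which rose, and MMP2, MMP10 and TLL1, which fell, averaged below 5 CPM in both groups. MMP7 had 18 and 16 reads in shp63, against 1 and 2 reads in shControl. TIMP2, an inhibitor of matrix metalloproteinases, rose 4.21-fold to 776 ± 14.6 CPM in shp63, against 185 ± 3.83 CPM in shControl (SD, n = 2 each). The lysosomal protease gene CTSL rose 3.63-fold, and BMP1, whose protease processes procollagen VII and laminin chains, rose 2.08-fold. TIMP3, a matrix-bound inhibitor, fell 2.35-fold, MMP14, a membrane-anchored collagenase, fell 1.66-fold, and the heparanase gene HPSE fell 1.25-fold.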
